A study of Mus musculus with 4 samples.

Results

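The cytosolic ribosomal protein genes code for the proteins of the 40S and 60S subunits of the ribosome in the cytoplasm. They were taken here as every symbol of the count tables that begins with Rps or Rpl followed by a digit, together with Rpsa, Rplp0, Rplp1 and Rplp2, and without symbols that contain -ps, which name pseudogene copies of these genes, although some of them are annotated as protein coding. This gave 97 of 27998 genes. By their names and known products, 11 of the 97 encode no ribosomal protein: the S6 kinases and related kinases (Rps6ka1 to Rps6ka6, Rps6kb1, Rps6kb2, Rps6kc1 and Rps6kl1) and Rps19bp1, which encodes a regulator of the deacetylase SIRT1. The remaining 86 are called ribosomal protein genes below, of which 77 are core genes (31 of the 40S subunit, 43 of the 60S subunit and 3 of the stalk of the 60S subunit) and 9 are paralogs or copies of core genes (Rpl10l, Rpl22l1, Rpl36al, Rpl39l, Rpl3l, Rpl6l, Rpl7l1, Rps27l and Rps27rt).

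Single cells were captured from spleens on day 8 after infection with LCMV Armstrong, a virus strain that causes an acute infection. The animals were mixed bone marrow chimeras: sub-lethally irradiated Rag1-/- hosts, which make no T or B cells of their own, had received a mixture of WT (CD45.1, B6.SJL) and Bcl3-/- (CD45.2) bone marrow, all on the C57BL/6 background; no age is stated for the animals. CD8+ T cells that bind the GP33 tetramer of the virus were sorted by their CD45 allele, so that each of 2 chimeras gave a WT and a Bcl3-/- (KO) library. The libraries are called WT1 and KO1 (chimera 1) and WT2 and KO2 (chimera 2), with n = 2 libraries per genotype and 1 animal per chimera. They were paired by the number in their titles. The paper describes its replicate as an independent experiment on another chimera, so that animal and experiment cannot be told apart in any difference between chimeras. Because all WT cells carried CD45.1 and all KO cells CD45.2, the Bcl3 genotype and any other difference between the donor strains cannot be told apart. Every animal was infected and every host lacked Rag1, so no library shows these genes without infection.

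UMIs (unique molecular identifiers) count captured transcripts at their 3′ ends. In total there were 21193300, 20358780, 22922219 and 22672343 UMIs in WT1, WT2, KO1 and KO2, with 4941, 8092, 5366 and 6494 cells that had 500 genes or more and no more than 10% of UMIs from mitochondrial genes. The median cell had 3571, 2019, 3620.5 and 2948 UMIs in the same order, so that WT2 was the shallowest library per cell. Between 37 and 63 cell barcodes were shared by each pair of libraries. Bcl3 itself was at 33.2 and 108 CPM in WT1 and WT2 and at 27.6 and 86.6 CPM in KO1 and KO2 (CPM, UMIs of a gene per 1000000 UMIs of the cells of a library). It was lower in KO than in WT within each chimera, while the levels of the genotypes overlapped across chimeras, and the labels were taken as given. Which part of the gene is deleted is not stated for these mice, and it was not tested whether the 3′ counts lie inside it. Of the CD8 T cell markers, Cd8b1 was the most abundant, at 1907, 1717, 2033 and 2039 CPM, and none of the 8 markers was at 0, while clusters of B cell-like and myeloid-like cells showed that the sort also held other cells.

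Ribosomal proteins are made in near-equal amounts and assemble with ribosomal RNA in the nucleolus. Their mRNAs are among the most abundant of a cell, and most begin with a 5′ terminal oligopyrimidine (TOP) tract, a C followed by an unbroken run of C and T, through which the kinase mTORC1 and the protein LARP1 set how strongly they are translated. T cells build ribosomes when they leave quiescence and divide, and Rps6, a 40S protein, is phosphorylated by the S6 kinases downstream of mTORC1. None of this regulation of translation is seen in counts of mRNA.

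Start sequences are shown for members that the text returns to, with genes of each subunit and paralogs without the tract, because the tract is the sequence feature that these genes are known for. Each window holds the 10 bases before the annotated start and the 20 bases from it, from the RefSeq table of promoters on GRCm38 (mm10), read 5′ to 3′ on the strand of the gene. Capitals mark the run of C and T that begins with a C at the start, where it is at least 5 bases long.
Rps6 (40S, chr4:86857348-86857377, minus strand): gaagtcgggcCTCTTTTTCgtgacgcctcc
Rps18 (40S, chr17:33955646-33955675, minus strand): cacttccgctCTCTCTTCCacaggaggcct
Rps27 (40S, chr3:90213629-90213658, minus strand): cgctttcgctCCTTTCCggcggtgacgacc
Rps27rt (copy of Rps27, chr9:114982720-114982749, minus strand): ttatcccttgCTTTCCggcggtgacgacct
Rpl15 (60S, chr14:18270967-18270996, minus strand): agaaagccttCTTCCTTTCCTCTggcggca
Rpl35 (60S, chr2:39005112-39005141, minus strand): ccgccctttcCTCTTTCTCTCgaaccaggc
Rplp2 (stalk, chr7:141447641-141447670, plus strand): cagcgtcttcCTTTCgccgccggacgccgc
Rps27l (paralog, chr9:66946076-66946105, plus strand): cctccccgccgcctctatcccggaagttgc
Rpl22l1 (paralog, chr3:28805498-28805527, plus strand): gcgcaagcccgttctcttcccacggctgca
Rpl36al (paralog, chr12:69184048-69184077, minus strand): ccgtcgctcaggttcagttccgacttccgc

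Among core genes with a start in that table, 13 of 57 (22.8%) had such a tract at the annotated base, against 501 of 17999 (2.78%) of all genes of the count tables that have a start there. The tract was found in 6 of 23 genes of the 40S subunit, 6 of 32 of the 60S subunit and 1 of 2 of the stalk, and in 1 of 8 paralogs or copies (Rps27rt). None of 68 mitochondrial ribosomal protein genes had it. Only a run that starts exactly at the annotated base was counted, and an annotated start that is off by a few bases would hide a tract. Runs of C and T lie just before or after the start of Rps27l and Rpl22l1. Whether transcription begins at them was not tested. Genes with the tract had a median log2 ratio of 0.51 (13 core genes) between MPEC-gene clusters and clusters with no list, and those without it 0.44 (44 core genes). Their ranges overlapped, at 0.17 to 0.61 with the tract and 0.0093 to 0.87 without it. Against the same reference, the medians with and without it were 0.65 and 0.65 in B cell-like and −0.04 and −0.09 in cycling clusters. They were −0.10 and −0.07 in terminal effector-like and −0.0003 and 0.02 in interferon-like clusters. None of these differences was tested.

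Ribosomal protein genes took a large share of all UMIs, and the core genes gave nearly all of these. Their share was 22.0% and 19.2% in WT1 and WT2 and 21.9% and 18.8% in KO1 and KO2. Chimera 1 was high and chimera 2 low in both genotypes. Core genes gave 98.5%, 98.5%, 98.5% and 98.3% of the ribosomal protein UMIs in the order WT1, WT2, KO1 and KO2. The ratio of 60S to 40S UMIs was 1.32, 1.30, 1.31 and 1.31 and hardly moved between libraries. The 10 most abundant genes held 25.7%, 27.2%, 26.5% and 26.7% of the ribosomal protein UMIs.

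All 77 core genes were found in every library, but their levels were far from equal. Each UMI stands for 1 captured 3′ end, so levels were compared between genes as UMIs and not divided by length. Mean levels over the 4 libraries ranged from 709 CPM (Rpl5, which carries the 5S ribosomal RNA into the large subunit) to 7644 CPM (Rpl13a, which also holds back translation of inflammatory mRNAs in myeloid cells), a 10.8-fold range with a median of 2320 CPM. Rplp0, Rps27, Rps14, Rpl41, Rpl13, Rpl32 and Rps18 were also among the 10 highest means. Rpl13a was at 7682, 6856, 8581 and 7455 CPM in WT1, WT2, KO1 and KO2 and was the highest in each library. Rplp0, the base of the stalk that recruits elongation factors, was at 6533, 5882, 5875 and 5506 CPM. In 70 of 77 core genes the mean was above 1000 CPM.

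The paralogs lay lower and spread over a wide range. Rpl22l1, the paralog of Rpl22, was at 1353, 1289, 1208 and 1199.9 CPM in WT1, WT2, KO1 and KO2. Rpl36al, the paralog of Rpl36a, was at 1045, 917, 972 and 865 CPM. Both were as abundant as low core genes. Rps27l, a paralog of Rps27 and a target of p53, was at 410, 389, 362 and 348 CPM. Rpl7l1 was at 58.3, 59.0, 56.0 and 64.0 CPM. Rpl39l and Rpl3l were under 5 CPM in all libraries, and Rpl10l, a paralog known from the testis, had no UMI. These 3 genes did not pass the filter on low counts, which left 83 of 86 ribosomal protein genes, all 77 core genes among them, in the tests.

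The share differed more between classes of cells than between genotypes. Cells were clustered in each library with the ribosomal protein genes left out of the genes that make the clusters, and clusters were named from lists of marker genes. Clusters that met no list held 2352, 4517, 3136 and 3929 cells in WT1, WT2, KO1 and KO2 and are the reference below. In them the share was 21.9%, 19.1%, 22.0% and 19.1%. Counting error is small here (exact Clopper-Pearson interval at 95% confidence, 21.9% to 22.0% in WT1, which covers counting error only). Among single cells of these clusters the standard deviation of the share was 3.04, 2.57, 3.10 and 2.70 percentage points, against 0.756, 0.914, 0.697 and 0.740 from counting alone.

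**Figure D1:**
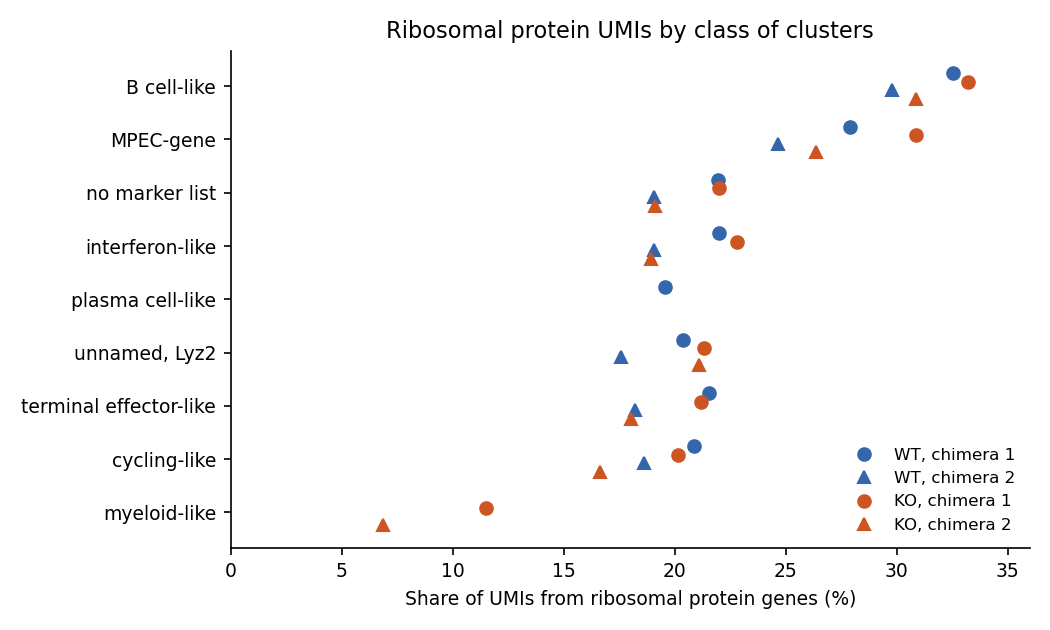
Share of UMIs from the 86 ribosomal protein genes (x axis, percent) in each class of clusters (y axis), with 1 point per library: blue for WT, orange for KO, circles for chimera 1 and triangles for chimera 2. B cell-like and MPEC-gene clusters lie to the right of the clusters with no marker list in all 4 libraries, myeloid-like clusters (KO only) lie far to the left, and circles lie to the right of triangles in each class of T cells.

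MPEC-gene clusters, whose leading genes were Dapl1, Ccr7, Tcf7 and Id3, which memory precursors (MPEC) share with naive T cells, had the highest share among the T cells. It was 27.9%, 24.6%, 30.9% and 26.4% in WT1, WT2, KO1 and KO2. All 4 libraries were above their own clusters with no list, by 6.93 percentage points on average (SD 1.5, n = 4, exact sign-flip permutation test, 2-sided, p = 0.13, the smallest that 4 libraries allow, adjusted p = 0.156 over 5 classes). The 4 libraries came from 2 animals, while this test, here and for the other classes, takes them as independent. The MPEC-gene clusters held 308, 444, 101 and 177 cells. Cd4, which marks another lineage of T cells, was at 22.1, 21.9, 57.3 and 25.5 CPM in them and was among the leading genes in KO1, against 0.594, 1.96, 0.820 and 0.982 CPM in the clusters with no list. Cd8a was at 523, 529.9, 353 and 401 CPM there, lowest in KO1, where the share was highest. The part of CD4 T cells in the share was not tested.

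Gene by gene, the difference was broad but uneven. Among genes of at least 50 CPM, 76 of 83 ribosomal protein genes were higher in the MPEC-gene clusters in all 4 libraries, where 18.5% of all 2648 such genes were. Their median log2 ratio was 0.44, against −0.06 for all genes. All 31 genes of the 40S subunit were higher in all 4 libraries (median 0.52), as were 39 of 43 of the 60S subunit (median 0.40) and the 3 of the stalk. The largest mean log2 ratios were those of Rpl36a (0.87), Rps28 (0.85), Rpl12 (0.83) and Rps20 (0.82). Rps20 went from 1203, 895, 1049 and 842 CPM to 1884, 1508, 2049 and 1613 CPM in WT1, WT2, KO1 and KO2, with no overlap between the classes.

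Some 60S genes hardly differed. Rpl13a was at 8332, 7390.4, 9212 and 8137 CPM in the clusters with no list and at 8346, 7548, 8919 and 8429 CPM in the MPEC-gene clusters (mean log2 ratio 0.01). The levels overlapped, and the ratio had both signs among the libraries. Rpl24 (0.02), Rpl7a (0.03) and Rpl27 (0.03) had ratios as close to 0. Rpl36al and Rps27l were lower in the MPEC-gene clusters in all 4 libraries, with mean log2 ratios of −0.13 and −0.11, where 31.6% of all genes were lower in all 4. CPM are shares of a total that holds these genes, so that higher shares of many of them lower the rest. With totals without ribosomal protein genes, 81 of 83, among them all 77 core genes, were higher in the MPEC-gene clusters in all 4 libraries, against 866 of 2648 of all genes, and the median of all genes moved to 0.07.

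B cell-like clusters, with 105, 119, 134 and 126 cells and led by Cd79a, Ms4a1 and Ly6d, stood highest of all classes. Their share was 32.6%, 29.8%, 33.2% and 30.9%. This was 11.1 percentage points above the clusters with no list (SD 0.540, n = 4, exact sign-flip permutation test, p = 0.13, adjusted p = 0.156), in 4 of 4 libraries. Of 83 genes, 77 were higher in all 4 libraries (15.6% of all genes) and 4 were lower in all 4 (50.9% of all genes): Rpl13a, Rps27l, Rpl27 and Rpl36al. The median log2 ratio was 0.65, against −0.30 for all genes. Rps20 led with a mean log2 ratio of 1.5, at 2978, 2511, 2932 and 2681 CPM in the B cell-like clusters. Rpl36a (1.32) and Rps19 (1.22) followed. With totals without ribosomal protein genes, 81 of 83 and all 77 core genes were higher in all 4 libraries, against 678 of 2648 genes, and Rpl13a was no longer lower in all 4.

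**Figure D2:**
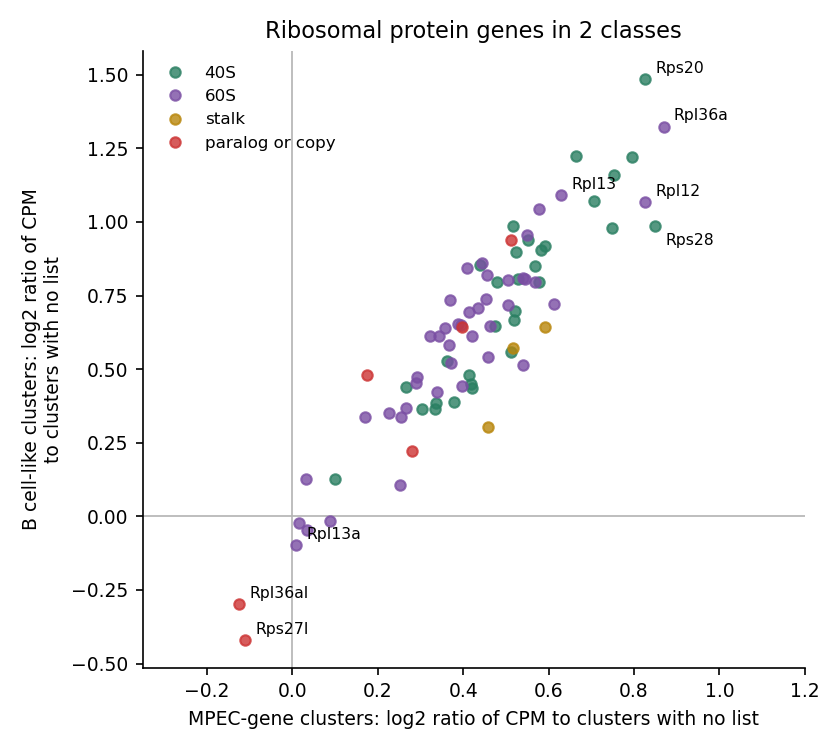
Mean over 4 libraries of the log2 ratio of CPM to the clusters with no marker list, in MPEC-gene clusters (x axis) and in B cell-like clusters (y axis), 1 point per gene for 83 ribosomal protein genes, coloured by subunit. Both axes share the same reference clusters. Rps20, Rpl36a and Rps28 are at the top right, Rpl13a is near 0 on both axes, and the paralogs Rpl36al and Rps27l are below 0 on both.

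Cycling clusters, led by genes such as Ccnb2, Mcm5 and Top2a, were slightly lower. Their share was 20.9%, 18.6%, 20.1% and 16.7%, which was 1.44 percentage points below the clusters with no list on average (−1.44, SD 0.874, n = 4, lower in 4 of 4 libraries, exact sign-flip permutation test, p = 0.13, adjusted p = 0.156). The clusters within this class differed. Clusters led by Lig1 and Mcm genes of DNA replication were at 22.8%, 19.6%, 22.7% and 19%. Clusters led by Ccnb2 or Cdc20, genes of mitosis, were at 19.2% and 17.5% in the WT libraries, at 19% in KO1 and, in a pair of clusters, at 16.7% and 14.6% in KO2. Clusters led by Hist1h2ap were at 19.6%, 18.9%, 18.2% and 16.0% in the order above. In each library the replication cluster was the highest of its cycling clusters.

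Single genes went opposite ways in the cycling clusters. Of 83 genes, 17 were higher in all 4 libraries (39.7% of all genes) and 39 were lower in all 4 (34.3% of all genes). Rps27l was higher, from 355, 349, 331 and 307 CPM in the clusters with no list to 541, 505, 518 and 445 CPM, a mean log2 ratio of 0.58. Its parent Rps27 went the other way, from 5503, 5131, 6596 and 5054 CPM to 3995, 3648, 4391 and 3247 CPM (−0.54). Rps27rt had a ratio of −0.61. Rps27 and Rps27l had opposite signs in all 4 libraries.

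Terminal effector-like clusters, led by Zeb2, Cx3cr1, Klrg1 and Gzma, were close to the clusters with no list. Their share was 21.5%, 18.2%, 21.2% and 18%, a difference of −0.774 percentage points (SD 0.273, n = 4, lower in 4 of 4 libraries, exact sign-flip permutation test, p = 0.13, adjusted p = 0.156). Of 83 genes, 48 were lower in all 4 libraries (35.4% of all genes) and Rps3a1 alone was higher in all 4 (13% of all genes), and the median log2 ratio of −0.07 lay near that of all genes (−0.06). In interferon-like clusters, led by Ifit1, Isg15 and Ifit3, the share was 22.0%, 19.1%, 22.8% and 18.9%, which differed from the clusters with no list by 0.187 percentage points (SD 0.449, n = 4, higher in 2 of 4 libraries, exact sign-flip permutation test, p = 0.75, adjusted p = 0.75). There 9 of 83 genes were higher in all 4 libraries (11.8% of all genes) and 7 were lower (21% of all genes). The clusters with no list that serve as reference were not the same in each library. The largest of KO1 (979 cells, share 23.1%) was led by Il7r and Tcf7, markers of memory precursors, and also by Tox and Bcl2. Another of KO1 (531 cells, 20.9%) was led by the terminal effector genes Cx3cr1 and Klrg1, and in KO2 a cluster of 537 cells (19.6%) was led by interferon genes. No cluster with no list in WT1, WT2 or KO2 had Il7r or Tcf7 among its leading genes.

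Clusters named myeloid-like, led by S100a8, S100a9 and Retnlg, were found in the KO libraries only and had the lowest share. It was 11.5% in KO1 and 6.87% in KO2, in 112 and 101 cells with medians of 1483.5 and 1597 UMIs. Of 83 genes, 82 were lower than in the clusters with no list in both libraries, as were 1989 of all 2648 genes, with a median log2 ratio of −1.23, against −0.76 for all genes. S100a8 alone was at 83430 and 117381 CPM in them. Unnamed clusters led by Lyz2 were found in all 4 libraries and met the myeloid list as well as the B cell list. Ms4a6c, Tgfbi and C1qb were among their leading genes. They had shares of 20.4%, 17.6%, 21.3% and 21.1%, so the low share was not common to all clusters that met the myeloid list. Of 83 genes, 22 were higher in the Lyz2 clusters in all 4 libraries (20.2% of all genes) and 23 were lower (48.2% of all genes). Rpl10 was the highest (mean log2 ratio 0.94) and Rpl13a the lowest (−0.83). Plasma cell-like cells of WT1, 50 in number, had a share of 19.6%.

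The question of the design was what the loss of Bcl-3 changes in virus-specific cells of the same animal. Over all cells, WT libraries had a share of 20.6% ± 1.99 (SD, n = 2) and KO libraries one of 20.4% ± 2.16 (SD, n = 2). The difference, KO minus WT, was −0.214 percentage points (exact permutation test, 2-sided, p = 0.667, where 2 libraries against 2 allow no p under 0.333). Within the chimeras it was −0.0927 and −0.335 percentage points. Without WT1 the difference was 1.19 and without KO2 1.31 percentage points, and the lowest value on leaving out a library was −1.74. Each such removal unbalances the chimeras. The chimeras differed by 2.81 percentage points in WT and 3.06 in KO, more than the genotypes did within either chimera.

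Within each class compared below the genotypes also overlapped. In the unnamed Lyz2 clusters they did not, at 20.4% and 17.6% in WT and 21.3% and 21.1% in KO, which was not tested. In the clusters with no list, KO minus WT was 0.0440 percentage points in chimera 1 and 0.0376 in chimera 2. In the MPEC-gene clusters it was 2.99 and 1.74 percentage points, KO above WT in both chimeras, where WT had 26.3% ± 2.30 (SD, n = 2) and KO had 28.6% ± 3.18 (SD, n = 2) (exact permutation test, p = 0.667). The class did not hold like cells in each library: in KO1 it was a cluster of 101 cells with Cd4 among its leading genes, beside the 979 cells led by Il7r and Tcf7 that have no list, and in WT1 it was 308 cells with no such cluster beside it. In the cycling clusters KO minus WT was −0.752 and −1.95 percentage points, KO below WT in both chimeras (exact permutation test, p = 0.667). The mix of clusters differed between libraries in this class as well. The replication cluster held 307 of 820 and 309 of 1079 cells in WT1 and WT2. In KO1 and KO2 it held 163 of 537 and 146 of 809 cells. Its share was 22.8% and 19.6% in WT1 and WT2 and 22.7% and 19% in KO1 and KO2. Terminal effector-like clusters differed by −0.345 and −0.152, B cell-like clusters by 0.675 and 1.1 and interferon-like clusters by 0.806 and −0.128 percentage points.

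**Figure D3:**
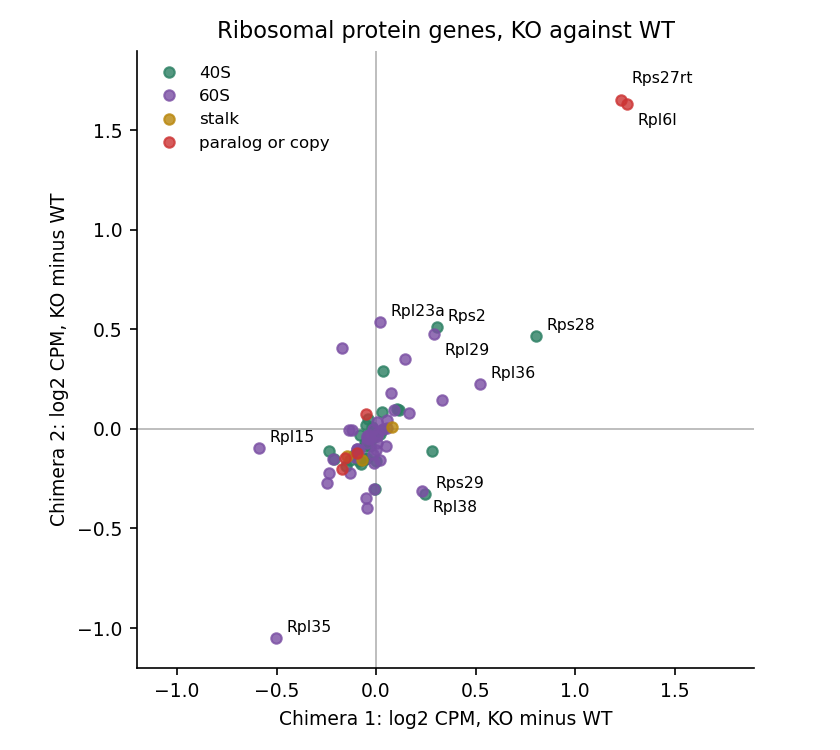
Difference in log2 CPM between KO and WT in chimera 1 (x axis) and chimera 2 (y axis) over all cells, 1 point per gene for 83 ribosomal protein genes, coloured by subunit. Most genes lie near 0 on both axes, the copies Rps27rt and Rpl6l lie far to the top right, Rps28 and Rpl36 are above 0 and Rpl35 and Rpl15 below 0 on both axes.

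Of 83 ribosomal protein genes tested, 2 differed between genotypes, and both are copies of core genes. In the quasi-likelihood test of edgeR, with p-values adjusted over 11566 genes by Benjamini and Hochberg's method, 0.363% of all genes were called (0.285% higher and 0.0778% lower in KO). The 2 called members were higher in KO, none was lower, and 6 had an unadjusted p under 0.05 (15.6% of all genes). DESeq2 called the same 2 genes (1.64% of all genes). The median log2 fold change over the 83 genes was −0.05, against 0.01 over all genes. Both KO libraries lay above both WT libraries in 9 of 83 genes, where 25.7% of all genes did, and below them in 8, where 18.8% did. With the chimera as a replicate block, 9 of 83 were called, 6 higher and 3 lower in KO, against 9.65% of all genes (4.81% higher and 4.84% lower).

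Rps27rt (ENSMUSG00000050621, GRCm38 chr9:114982366-114982739, minus strand) is a copy of Rps27 in a single exon, annotated as protein coding. It was at 218 and 152 CPM in WT1 and WT2 and at 509 and 491 CPM in KO1 and KO2. Both KO libraries were above both WT libraries (log2 fold change 1.42, SE 0.184, edgeR quasi-likelihood test, adjusted p = 0.0354), and the chimeras gave 1.23 and 1.65. Rpl6l (ENSMUSG00000091086, chr10:111125851-111126721, plus strand), a single-exon copy of Rpl6 annotated as a processed pseudogene, was at 118 and 80.5 CPM in WT and at 280.1 and 257 CPM in KO. The libraries again did not overlap (log2 fold change 1.42, SE 0.191, edgeR quasi-likelihood test, adjusted p = 0.0408), with 1.26 and 1.63 in the chimeras.

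The counts of both copies are uncertain, because their sequence is close to that of the parent gene. Over the last 300 bases of the transcripts, 87.8% of the 60-base words of Rps27rt and 100% of those of Rpl6l were also found in another gene's transcripts, so that the authors' counting could split reads between parent and copy. Rps27rt amounted to 4.08% and 3.04% of the UMIs of Rps27 in WT and to 7.89% and 10.3% in KO, and Rpl6l to 5.2% and 4.6% of Rpl6 in WT and 11.3% and 11.2% in KO. With the UMIs of copies added to the parent gene, no ribosomal protein gene of 81 was called (3 at an unadjusted p under 0.05, DESeq2 not run on these sums), against 0.321% of all genes (0.243% higher and 0.078% lower). With the block 9 of 81 were called, 6 higher and 3 lower in KO, against 9.84% of all genes (4.85% higher and 4.98% lower). Rps27 with its copy was at 5561 and 5142 CPM in WT and 6963 and 5236 CPM in KO, which overlapped. Rpl6 with its copy was at 2379 and 1829 CPM in WT and 2766 and 2554 CPM in KO, both KO libraries above both WT libraries.

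Both copies were higher in KO in the classes of cells too, which are parts of the same libraries and no further replicates. In the MPEC-gene clusters Rps27rt was at 305 and 207 CPM in WT and 780 and 821 CPM in KO. In the B cell-like clusters it was at 433 and 278 CPM in WT and 1095 and 1003 CPM in KO. KO was above WT in both. Rpl6l was at 136 and 108 CPM in WT and 416 and 348 CPM in KO in the MPEC-gene clusters. It was at 175 and 121 CPM in WT and 480 and 417 CPM in KO in the B cell-like clusters. The order of the genotypes was the same in the B cell-like and the MPEC-gene clusters of these libraries. In the clusters with no list, Rps27rt was called (adjusted p = 0.0411, edgeR quasi-likelihood test) and Rpl6l was not (adjusted p = 0.0578), against 0.164% of all genes (0.116% higher and 0.0482% lower in KO). With the block, 13 of 83 were called there, 9 higher and 4 lower in KO, against 6.8% of all genes (3.45% higher and 3.35% lower).

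Other annotated copies of ribosomal protein genes lie outside the rule. Of 31 such copies, 28 were tested, which belong to 19 parent genes. Of the 28, 3 were called higher in KO (0.285% of all genes) and none lower (0.0778% of all genes) by the unblocked edgeR test. Without the B cell-like, plasma cell-like, myeloid-like and Lyz2 clusters, 1 of them was called (Gm6133). Both KO libraries were above both WT libraries in 11 of the 28 (25.7% of all genes) and below in 2 (18.8% of all genes). Gm6133, a copy of Rpl17, was at 23.8 and 17.0 CPM in WT and at 79.5 and 121 CPM in KO (log2 fold change 2.27, SE 0.218, adjusted p = 0.0171, edgeR). Rpl23a-ps3 was at 193 and 146 CPM in WT and 513 and 430.4 CPM in KO (log2 fold change 1.46, SE 0.179, adjusted p = 0.0354, edgeR). Rps18-ps3 was at 31.7 and 21.0 CPM in WT and 77.2 and 84.5 CPM in KO (log2 fold change 1.59, SE 0.186, adjusted p = 0.0335, edgeR). None of these 3 had overlapping genotypes. Without the clusters above, Rpl23a-ps3 (adjusted p = 0.0621) and Rps18-ps3 (adjusted p = 0.0567) missed the threshold of edgeR's test, with log2 fold changes of 1.45 and 1.58.

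The direction was not shared by all copies. With the replicate block, 13 of the 28 copies outside the rule were called higher in KO (4.81% of all genes) and 4 lower (4.84% of all genes). The 4 lower ones were Gm10709 (copy of Rpl29), Gm10073 (of Rplp1), Gm10076 (of Rpl41) and Rpl13a-ps1. Gm10073 was at 714 and 362 CPM in WT and 309 and 144 CPM in KO, which put both KO libraries below both WT libraries. Gm10076 was at 1376 and 1044 CPM in WT and 1050.2 and 286 CPM in KO, where KO1 lay just above WT2.

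**Figure D4:**
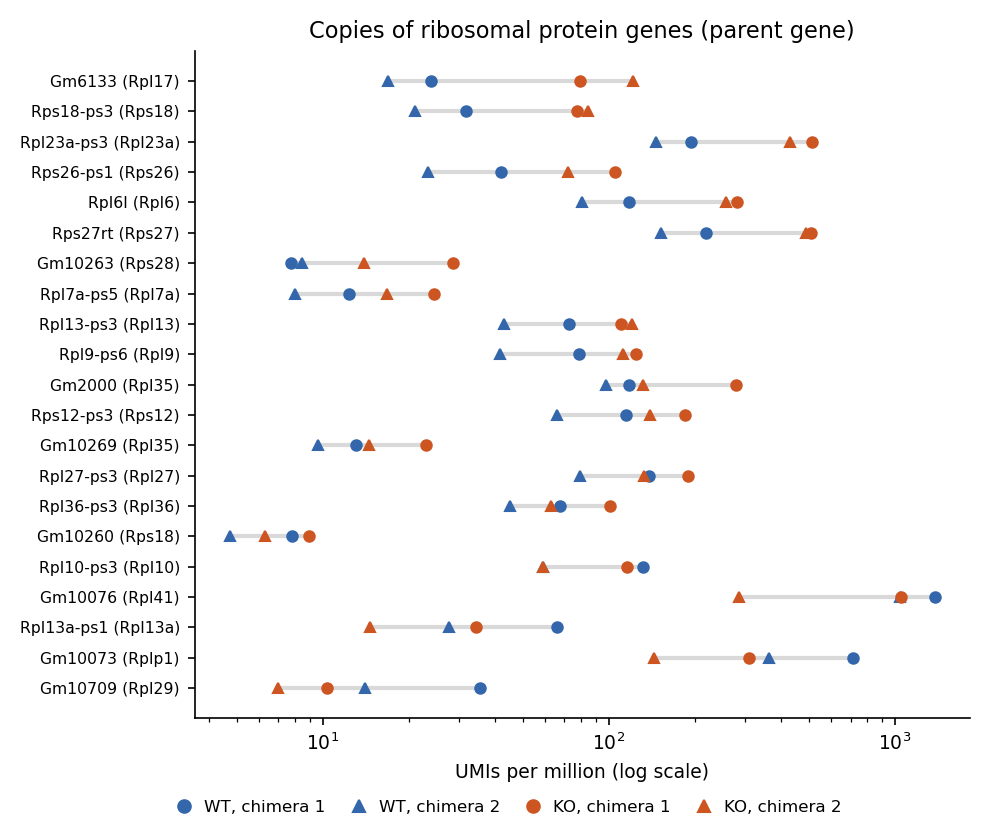
Level (CPM, log axis) of the 21 most abundant of 33 copies of ribosomal protein genes (the 31 outside the rule, Rps27rt and Rpl6l), the parent gene in brackets, with 1 point per library: blue for WT, orange for KO, circles for chimera 1 and triangles for chimera 2, and a grey line over the range of the 4 libraries. Orange points lie to the right of blue ones in the upper rows, from Gm6133 to Rps18-ps3, Rpl6l and Rps27rt, and to the left for Gm10073 and Gm10709 at the bottom.

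Among core genes, several moved the same way in both chimeras without passing the unblocked test. Rpl35, a 60S protein at the exit of the peptide tunnel, was at 4023 and 3446 CPM in WT and at 2821 and 1711 CPM in KO. Both KO libraries were below both WT libraries (log2 fold change −0.73, SE 0.261, adjusted p = 0.262, edgeR quasi-likelihood test), and the block gave −0.78 (adjusted p = 0.000469, the same test with chimera as a term). The copies of Rpl35, Gm2000 and Gm10269, went the other way, at 131 and 108 CPM together in WT and 302 and 146 CPM in KO, but Rpl35 with its copies was still at 4154 and 3554 CPM in WT and 3123 and 1857 CPM in KO. Rps28, a 40S protein near the channel through which mRNA leaves, was at 1140.3 and 965 CPM in WT and at 1977 and 1369 CPM in KO. KO was above WT without overlap (log2 fold change 0.66, SE 0.214, adjusted p = 0.235, edgeR; with the block 0.63, adjusted p = 0.000378). Single libraries moved both values by over 1.5 times. Rpl35 was at −1.2 without KO1 and −0.37 without KO2, and Rps28 at 0.31 without KO1 and 0.94 without KO2 (log2 fold changes).

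Rps2, a 40S protein at the entry of the mRNA channel, was at 1559 and 1222 CPM in WT and 1914 and 1788 CPM in KO. Rpl36, a 60S protein, was at 1796 and 1659 CPM in WT and 2566 and 1994 CPM in KO. Rpl29, a small 60S protein, was at 1437 and 1176 CPM in WT and 1747 and 1684 CPM in KO. These 3 did not overlap between genotypes and had log2 fold changes of 0.40, 0.39 and 0.38, which passed with the block (adjusted p = 0.00513 for Rps2 and 0.0131 for Rpl36, edgeR) and not without it (adjusted p = 0.31 for Rps2 and 0.345 for Rpl36, edgeR). Single libraries decided much of these values too, with log2 fold changes of 0.20 without WT2 and 0.61 without WT1 for Rps2, and 0.14 without KO1 and 0.60 without KO2 for Rpl36. Rpl15, a 60S protein, was at 1647 and 1037 CPM in WT and 1090.4 and 998 CPM in KO, and Rpl36a at 1212 and 958 CPM in WT and 1016 and 815 CPM in KO. Both overlapped between genotypes while KO was below WT within each chimera, and both were called with the block only (adjusted p = 0.0423 and 0.0335, edgeR). Without WT1 the log2 fold change of Rpl15 was 0.02, and without WT2 it was −0.71. Rpl36a was at −0.26, with −0.05 without WT1 and −0.48 without KO1. Rpl31 (−0.23) and Rpl37a (−0.20) were the next lowest in KO and were not called by either test, and Rpl31 was at −0.01 without WT1 and −0.44 without KO1.

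The 10 most abundant core genes had log2 fold changes between −0.18 (Rpl13) and 0.25 (Rpl41). Rps27 was at 5343 and 4990 CPM in WT and 6454 and 4745 CPM in KO, with the KO libraries on either side of WT (log2 fold change 0.11, SE 0.206, adjusted p = 0.849, edgeR). Rpl13 was at 5243 and 5060.1 CPM in WT and 4755 and 4459 CPM in KO, and Rplp0 was lower in both KO libraries too, without a call for either (log2 fold changes −0.18 and −0.14, adjusted p = 0.62 and 0.733, edgeR). Rpl41, which encodes the smallest ribosomal protein, was at 4918 and 4212 CPM in WT and 6162 and 4788 CPM in KO (0.25). With its copy Gm10076 it was at 6293 and 5256 CPM in WT and 7212 and 5074 CPM in KO, above WT in chimera 1 and below it in chimera 2 (log2 fold change 0.08). Rps27l and Rpl22l1 were lower in both KO libraries, with log2 fold changes of −0.18 and −0.15, and Rpl36al (−0.11) and Rpl7l1 (0.01) overlapped; none of the 4 was called.

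Markers of other cell types and of T cell states were summed beside these genes. Over all genes tested, 25.7% were above and 18.8% below WT in both KO libraries. Summed over 10 myeloid markers, all cells had 2957 and 2821 CPM in WT and 3898 and 4267 CPM in KO, with S100a8 the most abundant (747 and 512 CPM in WT, 1328 and 1455 CPM in KO). Of the 10, 3 were above and 4 below WT in both KO libraries, and none was at 0. The 9 B cell markers summed to 2100.4 and 2250 CPM in WT and 2292 and 2216 CPM in KO, led by Cd74. These sums overlapped, and 5 of the 9 were above and none below WT in both KO libraries. The 7 terminal effector markers summed to 1617 and 1866 CPM in WT and 2690.3 and 2770.1 CPM in KO, led by Gzma, and all 7 were higher in both KO libraries. The 13 cycling markers summed to 1039 and 1118 CPM in WT and 736 and 937 CPM in KO, led by Stmn1, and 10 of them were lower in both KO libraries. The 10 MPEC-gene markers summed to 505 and 473 CPM in WT and 453 and 470.3 CPM in KO, led by Bcl2, with 1 above and 3 below WT in both KO libraries. The 10 interferon markers summed to 406 and 559 CPM in WT and 327 and 400.4 CPM in KO, led by Irf7, with none above and 4 below. Both sums were lower in both KO libraries. The 8 CD8 T cell markers summed to 8760.2 and 8668 CPM in WT and 9226 and 9316 CPM in KO, and the sums of effector, plasma cell and erythroid markers overlapped between the genotypes. The part of these cells in the differences of ribosomal protein genes was not tested. Without the B cell-like, plasma cell-like, myeloid-like and Lyz2 clusters, no ribosomal protein gene was called (5 at an unadjusted p under 0.05, DESeq2 not run on these cells), against 0.152% of all genes (0.0982% higher and 0.0536% lower), and Rps27rt (adjusted p = 0.0649) and Rpl6l (adjusted p = 0.0739) just missed the threshold of edgeR's test. With the block, 12 were called in these cells, 8 higher and 4 lower in KO, against 9.68% of all genes (4.7% higher and 4.97% lower). This removal was uneven, since myeloid-like clusters were named in KO only and a plasma cell-like cluster in WT1 only. In the cells that stayed, the myeloid markers summed to 2001 and 1504 CPM in WT and 1034 and 818 CPM in KO, and Jchain, of plasma cells, was at 93.6 CPM in WT1 against 789, 602 and 849 CPM in WT2, KO1 and KO2. In this sum over cells, a difference in the number of cells of a type and in RNA per cell cannot be told apart.

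The 11 genes of the rule that encode no ribosomal protein were low and uncalled. Rps6kb1, which encodes the S6 kinase that phosphorylates Rps6, was at 50.6 and 53.1 CPM in WT and 50.6 and 58.4 CPM in KO, and Rps6kb2, its relative, at 24.6 and 25.8 CPM in WT and 26.8 and 28.7 CPM in KO. Rps6ka1, a kinase of the ERK pathway, was the most abundant, at 122 and 119 CPM in WT and 135 and 148 CPM in KO (log2 fold change 0.21, SE 0.0863, adjusted p = 0.308, edgeR). Rps6ka3 (0.28) was higher in both KO libraries as well. Of the 9 tested, none was called by edgeR with or without the block or by DESeq2, and 2 had an unadjusted p under 0.05 (Rps6ka1 and Rps6ka3). Rps6ka6 had no UMI and Rps6ka2 was under 1 CPM in all libraries.

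The difference between chimeras ran through nearly all members. WT1 was above WT2 and KO1 above KO2 in 82 of 83 ribosomal protein genes, where 27.9% of all genes were higher in chimera 1 in both genotypes. The median log2 difference was 0.28 in WT and 0.30 in KO, against −0.0016 and −0.02 over all genes. The exception was the paralog Rpl7l1 (0.04 in WT and −0.09 in KO). Scaled to library totals alone, 79 of 83 were higher in chimera 1 in both genotypes, against 1848 of 11566 genes, and the medians were 0.22 and 0.20. With 1 animal per chimera this has no test, and a difference between animals cannot be told apart from one between experiments.

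Depth differed between the libraries too, and the order of the chimeras was the same in a shared window of UMIs per cell. In cells of the clusters with no list that had 2500 to 3500 UMIs, the share was 21.7% and 19.4% in WT1 and WT2 and 22.0% and 19% in KO1 and KO2. Depth still differed inside this window, with medians of 3069, 2764, 3125 and 2955 UMIs in WT1, WT2, KO1 and KO2. Within a library the share moved little from the cells with fewest to those with most UMIs (quartiles), from 21.4% to 22.3% in WT1, from 18.7% to 19.4% in WT2, from 22.0% to 22.1% in KO1 and from 18.6% to 19.4% in KO2. Barcodes with 1 to 50 UMIs, which hold free RNA, had shares of 19.6%, 17.2%, 18.8% and 15.5% in WT1, WT2, KO1 and KO2, below the cells in each library and higher in chimera 1 in both genotypes. The median mitochondrial share was between 2.58% and 2.71% in all 4 libraries.

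**Figure D5:**
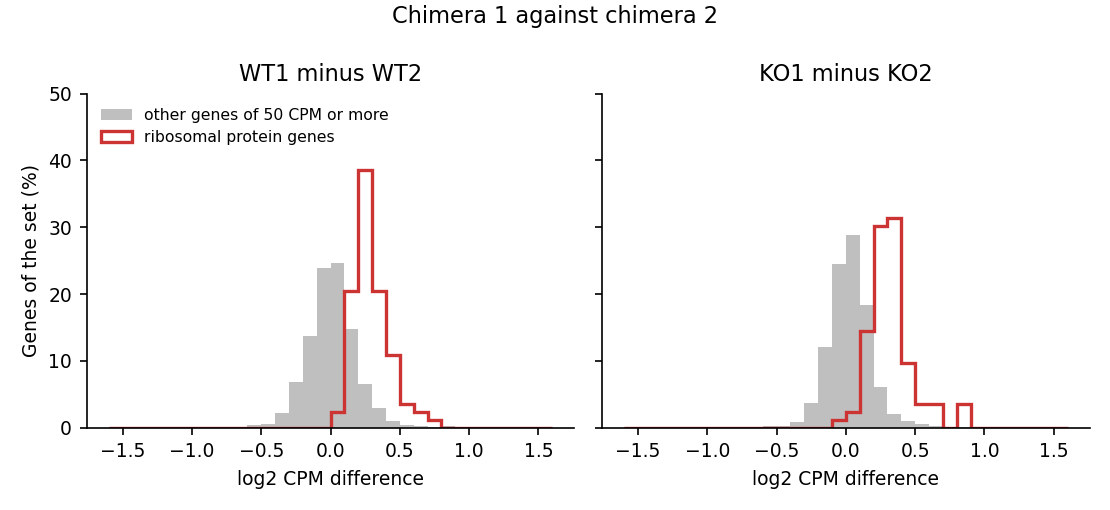
Distribution over genes of the log2 CPM difference between chimera 1 and chimera 2 (x axis) in WT (left) and KO (right), as percent of the genes of each set (y axis), for 83 ribosomal protein genes (red outline) and 2565 other genes of at least 50 CPM (grey). The other genes centre near 0 and the ribosomal protein genes near 0.3 in both genotypes.

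Other lists of the translation machinery were set beside the ribosomal protein genes, and some genes are on more than 1 list. Of 18 further genes known for TOP mRNAs, 17 were higher in chimera 1 in both genotypes (27.9% of all genes; median log2 differences 0.29 in WT and 0.21 in KO), and 12 of 18 were higher in MPEC-gene clusters in all 4 libraries (18.5% of all genes; median 0.21). Eef1a1 (mean log2 ratio 0.44), which brings aminoacyl-tRNA to the ribosome, Eef1b2 (0.61), which recharges it with GTP, and Npm1 (0.60), a nucleolar chaperone, were among them. Of 37 ribosome biogenesis genes, 14 were higher in chimera 1 in both genotypes, and 8 of the 10 with at least 50 CPM were higher in MPEC-gene clusters in all 4 libraries (18.5% of all genes; median 0.35), Fbl, a methyltransferase of ribosomal RNA, at 0.75. Of 77 mitochondrial ribosomal protein genes, 45 were higher in chimera 1 in both genotypes, and 5 of 45 with at least 50 CPM were higher (18.5% of all genes) and 10 lower (31.6% of all genes) in MPEC-gene clusters in all 4 libraries (median −0.08). None of the 7 mTORC1 genes of at least 50 CPM was higher there in all 4 libraries and 4 were lower (31.6% of all genes; median −0.34). No difference between these lists was tested.

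In KO against WT, none of the other lists had a called member in the unblocked edgeR test, and a few were called with the block, which called 9.65% of all genes (4.81% higher and 4.84% lower). Fau, which encodes the 40S protein eS30, was at 2984 and 2496 CPM in WT and 3639 and 2967 CPM in KO (log2 fold change 0.26, adjusted p = 0.548, edgeR), and Rack1, listed as Gnb2l1, at 941 and 819 CPM in WT and 930.0 and 812 CPM in KO (−0.03, adjusted p = 0.951, edgeR). Both genes lie outside the rule.

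Pabpc1, the poly(A)-binding protein, was at 826 and 607 CPM in WT and 1205 and 1362 CPM in KO (log2 fold change 0.82, adjusted p = 0.119; with the block 0.84, adjusted p = 0.000215, edgeR). Eef2, which moves the ribosome along the mRNA, was at 2236 and 1835 CPM in WT and 2601 and 2561 CPM in KO (0.33, adjusted p = 0.364; with the block adjusted p = 0.0192, edgeR). For both, KO lay above WT without overlap. Over all genes, 15.6% had an unadjusted p under 0.05 with edgeR and DESeq2 called 1.64%, while the block called 9.65% (4.81% higher and 4.84% lower). Of 36 initiation factors 9 had an unadjusted p under 0.05 and DESeq2 called 1, and with the block 3 were called higher (Pabpc1, Eif4b and Eif4g2) and 3 lower (Eif3a, Eif3c and Eif4a1) in KO. Of 10 elongation factors 1 had an unadjusted p under 0.05, DESeq2 called none, and the block called Eef2. Of 37 biogenesis genes 9 had an unadjusted p under 0.05 and DESeq2 called none, and the block called 4, all lower in KO (Nop56, Nop58, Nolc1 and Heatr1). Nop56, a core protein of the particles that methylate ribosomal RNA, was at 75.2 and 87.8 CPM in WT and 61.8 and 75.8 CPM in KO. Of 77 mitochondrial ribosomal protein genes 13 had an unadjusted p under 0.05 and DESeq2 called 1, and the block called 2 higher and 4 lower. Of 24 mTORC1 genes 1 had an unadjusted p under 0.05, and neither DESeq2 nor the block called any.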

How the data were processed

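The authors converted reads with bcl2fastq (2.17) and counted UMIs with Cell Ranger (2.2.0) on mm10, per the labels' processing notes, and deposited a matrix of raw UMI counts per gene and barcode for each library; the gene annotation behind the counts is not given in the sources used here. Barcodes with 500 genes or more and up to 10% of UMIs from mitochondrial genes were taken as cells. No doublet caller was run. Each library was clustered with Seurat 5.3.0 in R 4.3.3 (2000 variable genes without ribosomal protein genes, 15 components, 20 neighbours, resolution 0.8). A cluster was named where at least 3 markers of a list were at least 2-fold higher than in the other cells. These markers had to be found in 10% or more of its cells, and at least 1 marker of the list had to be among its 10 leading genes. The list with most such markers gave the name, unless another list held more of the leading genes. Clusters with less than 1% of a library's cells entered no class. The clusters led by Lyz2 met both the B cell and the myeloid list in each library and were left unnamed. This naming rule was set after clusters were seen.

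Counts were summed per library, over all cells and within the clusters with no list. KO and WT were compared with edgeR 4.0.16 (TMM factors, quasi-likelihood test, Benjamini-Hochberg adjustment, threshold 0.05), and DESeq2 1.42.0 was an alternative. The fits were tested on simulated data, where both called more unchanged genes than the threshold allows for, the fit with the replicate block below more so. The simulated libraries held no difference between chimeras, and their spread was taken from the unblocked fit. The test therefore cannot show how the block does on libraries whose chimeras differ, as they do here. The paper sorted WT and KO cells from the same animal, and libraries with the same number in their titles were taken as the pair of 1 chimera. A fit with the chimera as a replicate block is given beside the unblocked one (across 6864 genes above 10 CPM, the chimera differences of WT and KO correlated at r = 0.184). Class ratios are differences of log2(CPM + 1) for genes of at least 50 CPM in all cells. Shares have exact Clopper-Pearson intervals at 95% confidence, for counting error only. P-values of genotype comparisons measure the spread between 2 libraries per genotype, each from 1 animal. Those of class comparisons measure the spread of differences within 4 libraries, which came from 2 animals.

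The genes named are the 10 core genes of highest mean, the 5 highest and the 5 lowest log2 fold changes among members of the same sign in both chimeras, all paralogs, all members that encode no ribosomal protein, and called members, and in the other lists the called ones; genes leading the class ratios, Rpl29, Fau, Rack1, Eef1a1, Eef1b2, Npm1 and Fbl were chosen after their values were seen, as was the list of copies outside the rule. A few members of these groups are not reported here by name, though they entered every fit and count. The members and lists were chosen with earlier results of these data known.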

Additional observations from a re-analysis of the deposited data

Results flagged for a closer look

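The sign of KO minus WT differed between the chimeras for 18 of 83 ribosomal protein genes, and none of these differences was tested. Among the members that the rule for named genes picked, the following 4 are reported, and genes named for other reasons differed in sign too, such as Rpl27 (1901 and 1281 CPM in WT1 and WT2, 1681 and 1745 CPM in KO1 and KO2). Chimera 1 less chimera 2 was 0.39 on the log2 scale for Rps27 (0.28 in chimera 1 and −0.11 in chimera 2). It was −0.13 for Rpl7l1 (−0.05 and 0.08), −0.20 for Rps6ka5 (−0.17 and 0.03) and −1.59 for Rps6kl1 (−0.86 and 0.73), which had under 1 CPM in each library.

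The difference between genotypes in the share of UMIs had opposite signs in some pairs of classes, in both chimeras, and this was not tested. The difference in MPEC-gene clusters exceeded that in terminal effector-like clusters by 2.61 percentage points and that in cycling clusters by 3.71 percentage points. Terminal effector-like clusters less B cell-like clusters gave −1.14, and terminal effector-like clusters less clusters with no list gave −0.289 percentage points. Cycling clusters less B cell-like clusters gave −2.24, and cycling clusters less clusters with no list gave −1.39 percentage points.

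Symbols with -ps, which the rule leaves out, took 0.142% of UMIs on average in KO and 0.0759% in WT. The libraries did not overlap, at 0.0955% and 0.0563% in WT and 0.158% and 0.12% in KO, and the difference was not tested.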

How the results depend on the processing

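The 2 calls among ribosomal protein genes over all cells were near the threshold. The count was 1 without barcodes listed in more than 1 library, 0 without the B cell-like, plasma cell-like, myeloid-like and Lyz2 clusters, 0 with upper quartile factors and 0 with copies summed with their parent gene. With the replicate block it was 9, also with copies summed or with totals without ribosomal protein genes, and 12 without the clusters above. Leaving out each library in turn gave 2 to 3. The 2 calls among the named genes went with it: 1, 0, 0 and 0 in the same order, 8 with the block (Rpl29, the remaining call, is outside the rule for named genes), 6 with copies summed and the block, 10 without those clusters and with the block, 8 with the block and totals without ribosomal protein genes, and 2 to 3 on leaving out a library. Rpl6l and Rps27rt kept log2 fold changes between 1.14 and 1.75 in every alternative run on them. In the clusters with no list the single call became 13 with the block, 2 with DESeq2, 4 without a filter, 0 with copies summed, 11 with copies summed and the block, and 0 to 3 on leaving out a library.

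Leaving out a library gave −1.74 to 1.31 percentage points for the share, KO minus WT. The difference of interferon-like clusters was −0.14 at resolution 0.4, 0.687 with a higher minimum of genes per cell and 0.388 with markers at 1.5-fold, and ranged from −0.0313 to 0.306 on leaving out a library. Class differences otherwise kept their sign under each alternative run: 5.25 to 7.38 for MPEC-gene, 10.8 to 11.7 for B cell-like, −1.09 to −0.621 for terminal effector-like and −2.26 to −1.11 for cycling clusters. Log2 fold changes of uncalled genes reversed on leaving out a library, which also unbalances the chimeras: Rpl13a −0.034 to 0.27, Rpl15 −0.71 to 0.022, Rpl32 −0.21 to 0.081, Rpl36al −0.25 to 0.019, Rpl37a −0.49 to 0.044, Rpl41 −0.0022 to 0.47, Rpl7l1 −0.032 to 0.056, Rps14 −0.24 to 0.068, Rps18 −0.18 to 0.049, Rps27 −0.19 to 0.35, Rps6ka5 −0.22 to 0.074 and Rps6kl1 −0.68 to 0.50. Rpl7l1 was also at −0.00033 with DESeq2 and −0.061 with equal cells and UMIs. The causes were not tested. No erythroid-like cluster was named, so none was left out. The number of libraries, 2 per genotype, limits every comparison of genotypes.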
